A study of Homo sapiens with 2 samples.

Results

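SNHG8 and SNHG15 are small nucleolar RNA host genes, and after siRNA against MYCN their array signals were 39.4% and 38.7% of those in control cells. They are 2 of the 14812 genes that the platform annotation names on the array, and each is read by 1 probe set, a group of short probes summarised to 1 value. The rows were found by gene symbol, and the genes were chosen by their difference between the 2 arrays in an earlier look at these data. Their own values are therefore a description.

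RNA came from BE(2)C, an established human neuroblastoma cell line with amplified MYCN, grown in DMEM with fetal calf serum. One culture received the MYCN siRNA named MYCN2, from Qiagen, and the other received control ON-TARGETplus siRNA, from Dharmacon. Lipofectamine 2000 carried the siRNA in both, and RNA was taken after 36 hours. Each condition has 1 array (Affymetrix Human Gene 2.0 ST), so no value has a replicate, no test across cultures is possible, and the effect of the siRNA cannot be told apart from that of its supplier, culture or array. The level of MYCN was not analysed here.

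Small nucleolar RNAs (snoRNAs) guide chemical modification of ribosomal RNA in the nucleolus. Most human snoRNAs are cut from the introns of a host transcript after splicing. In an SNHG gene the joined exons form a long non-coding RNA, and the exons of many such hosts are degraded by nonsense-mediated decay when they reach the ribosome. Many snoRNA hosts, coding and non-coding, begin with a pyrimidine tract that they share with ribosomal protein genes. In the RefSeq annotation SNORA24 lies within SNHG8 and SNORA9 within SNHG15. Both are H/ACA snoRNAs, the class that guides pseudouridylation. The annotation gave neither snoRNA a named row, so the array values below concern the host transcripts, and the levels of SNORA24 and SNORA9 were not analysed here. The sources used here do not say which exons each probe set reads.

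The start region of SNHG8 is shown because MYC family proteins bind DNA at E-boxes, whose general form is CANNTG and whose preferred form is CACGTG. The window, from RefSeq (GRCh38.p14, chr4:118278512-118278811, plus strand), runs from 250 bases before the annotated start to 50 bases from it. Capitals mark CANNTG matches.
SNHG8: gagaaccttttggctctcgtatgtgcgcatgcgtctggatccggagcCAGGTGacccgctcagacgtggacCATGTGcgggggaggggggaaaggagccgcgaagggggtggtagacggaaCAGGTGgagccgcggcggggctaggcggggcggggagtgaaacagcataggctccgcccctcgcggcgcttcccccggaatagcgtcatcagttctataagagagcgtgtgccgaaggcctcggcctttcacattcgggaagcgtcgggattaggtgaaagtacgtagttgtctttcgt
The window held 3 CANNTG matches, at 203 to 198, 179 to 174 and 129 to 124 bases before the start. The outer matches read CAGGTG and the middle match reads CATGTG. It held no CACGTG and no CACGCG, a variant form. Both strands were searched, and every CACGTG is also a CANNTG. Over 27305 RefSeq windows of the same length, 68.9% held CANNTG, 7.43% CACGTG and 11.4% CACGCG. Among the 11 non-coding host genes on the array that had a window, 6 held CANNTG, 0 held CACGTG and 1, SNHG16, held CACGCG. SNHG15 had no window, so its start region was not searched. These are letter matches in a short window and say nothing of binding. GC made up 62.3% of the SNHG8 window, against a median of 58.3% over all windows.

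SNHG8 (gene ID 100093630) had a log2 value of 9.14 with control siRNA and 7.80 with MYCN siRNA. The difference, MYCN siRNA minus control, was −1.34, or 2.54-fold lower. SNHG15 (gene ID 285958) had a log2 value of 8.09 with control siRNA and 6.72 with MYCN siRNA, a difference of −1.37 or 2.58-fold lower. The differences of the 2 genes lay 0.03 apart on the log2 scale.

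The signals of both genes were well inside the range of the array. In the control array 93.5% of all 46255 rows lay below SNHG8 and 87.7% below SNHG15. In the MYCN siRNA array these shares were 85.6% and 77.3%. SNHG15, the dimmer signal of the pair, still lay 2.16 above the median row of the MYCN siRNA array. Neither fold therefore rests on a value near the array median.

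With 1 array a condition, spread can be seen only between probe sets that read the same gene. In 374 protein-coding genes with more than 1 probe set, the log2 difference had an SD of 0.31 per probe set. The differences of SNHG8 and SNHG15 were 4.30 and 4.39 times this SD. It leaves out the spread between cultures and between hybridisations, so it is a yardstick for probe sets only. SNHG8 and SNHG15 have no second probe set to set against the first.

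A gene counted as measured when either array put it at or above that array's median row. This held for 10592 genes, and SNHG8 and SNHG15 passed in both. Of the measured genes, 1.16% were at least 2-fold lower and 2.21% at least 2-fold higher with MYCN siRNA. Both host genes lay in the lower group, by the choice that picked them. From the lowest difference up, SNHG15 stood at place 27 and SNHG8 at place 33. Among the 606 measured long non-coding RNAs they stood at places 2 and 4. Of the 606, 7 were at least 2-fold lower (1.16%, the same share as over all measured genes) and 14 at least 2-fold higher. The 7 lower were LINC02381 (−1.45), SNHG15, VPS9D1-AS1 (−1.36), SNHG8, the snoRNA host GAS5, TMCC1-DT (−1.18) and PRRT3-AS1 (−1.05). The 606 as a class had a median of −0.04, against 0.01 over all measured genes.

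At their own signal level the differences were among the lowest, which largely follows from the choice of the genes by this difference. Of 1541 other measured genes with a mean level within 0.5 of SNHG8, 7 were as low or lower. For SNHG15 it was 7 of 1864. The medians of these neighbours in level were 0.05 and 0.07, and their SDs 0.45 and 0.47. The plot of difference against level shows SNHG8 and SNHG15 below the bulk of genes of their brightness.

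**Figure D1:**
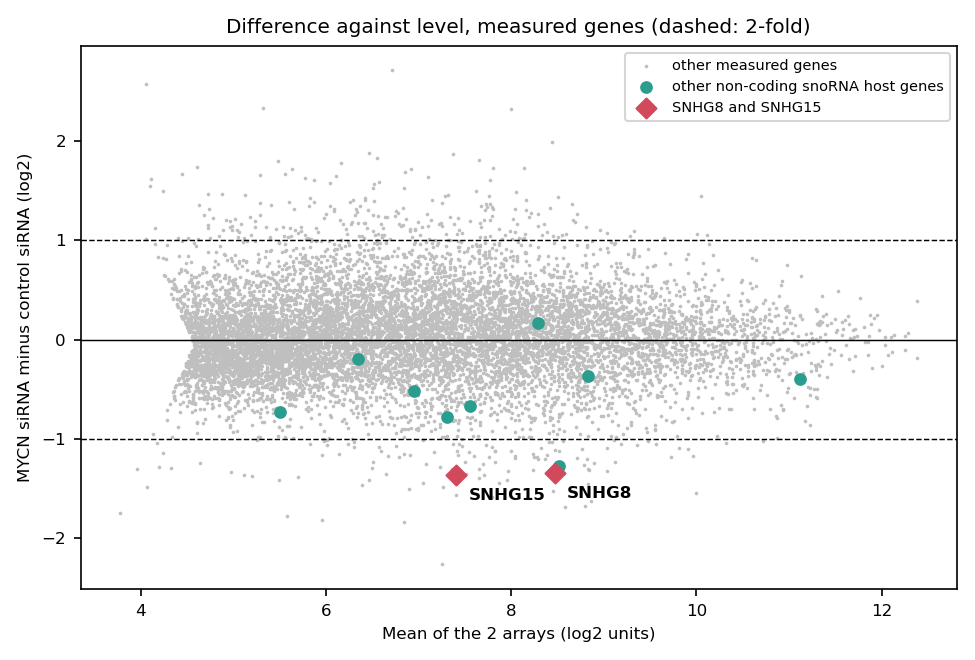
Log2 difference, MYCN siRNA minus control siRNA, against the mean log2 value of the 2 arrays for the 10592 measured genes, 1 point a gene, with 2-fold marked by dashed lines. SNHG15 (−1.37) and SNHG8 (−1.34) lie below the lower dashed line, and GAS5 (−1.28) lies beside SNHG8.

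Most of the other measured non-coding snoRNA hosts ran in the same direction, and all differed by less than the pair. Of 29 listed genes, 12 were on the array and 11 measured, and of these 10 were lower and 1 was higher. The median difference was −0.67 (1.59-fold lower). Without SNHG8 and SNHG15, 8 of the other 9 were lower, with a median of −0.52, while 48.0% of all measured genes were lower. At least 2-fold lower were 3 of the 11, or 1 of 9 without the pair, which was chosen by its difference, against 1.16% of all measured genes. At least 1.5-fold lower were 6 of the 11, or 4 of 9 without the pair, against 5.79% of all measured genes.

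GAS5, the host of a cluster of C/D box snoRNAs and a transcript that accumulates in growth-arrested cells, came nearest to the pair. It went from 9.16 with control siRNA to 7.88 with MYCN siRNA, 2.43-fold lower. SNHG17 went from 7.70 to 6.91 (1.72-fold lower) and EPB41L4A-AS1, which hosts an H/ACA snoRNA, from 5.87 to 5.14 (1.66-fold lower). DANCR was 1.59-fold lower and SNHG5 1.43-fold lower. On the log2 scale GAS5 was at −1.28 and SNHG17, next in order, at −0.78.

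SNHG16 had a difference of −0.40, ZFAS1, a host of C/D snoRNAs, one of −0.37 and SNHG10 one of −0.20. SNHG20 was the member that was higher, at 8.21 with control and 8.37 with MYCN siRNA, a difference of 0.16. The differences of SNHG20 and SNHG10 are both smaller in size than the probe set SD of 0.31. SNHG18 was dim in both arrays, at 3.87 and 3.40, and was not counted as measured. SNHG33 stood outside the list, was picked once values were known, and was at −0.49. GAS5-AS1, the antisense transcript of GAS5, picked in the same way, went from a dim 4.49 to 5.59 (2.15-fold higher), against the direction of GAS5.

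**Figure D2:**
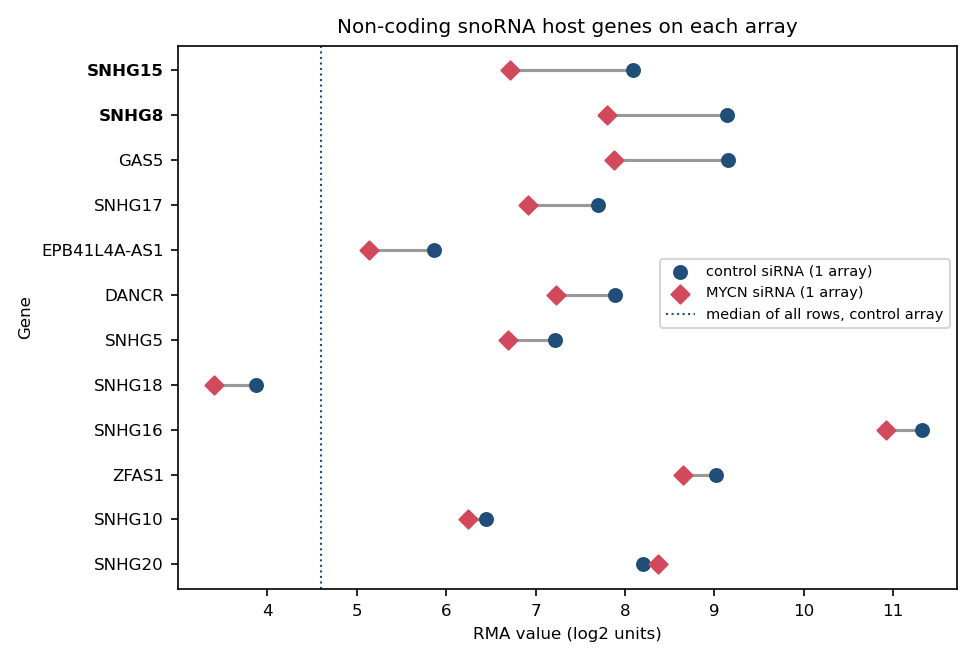
Log2 RMA value of the 12 non-coding snoRNA host genes on the array, with the control siRNA array as circles, the MYCN siRNA array as diamonds, 1 array of each, and the median of all rows of the control array (4.60) as a dotted line. SNHG15 and SNHG8 have the widest gaps, followed by GAS5, and SNHG20 is the gene whose MYCN siRNA value lies to the right of its control value.

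Protein-coding hosts carry snoRNAs in the introns of genes for ribosomal and nucleolar proteins. Of 47 listed, 12 were on the array and measured, and all 12 were lower, against 48.0% of all measured genes, with a median of −0.28. That median is smaller in size than the probe set SD of 0.31. None was at least 2-fold lower, near the 1.16% of all measured genes. RPL32, a protein of the large ribosomal subunit, had the lowest difference at −0.86. It was also the dimmest of the list, at 5.63 with control and 4.77 with MYCN siRNA, where the median row was 4.55. WDR43, a ribosome assembly factor, was at −0.57, NCL, which encodes nucleolin, at −0.48, and CCAR1, a coactivator, at −0.05. Single values of ribosomal protein genes are uncertain, since their many processed pseudogenes can share probes.

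Ribosomal proteins that host no listed snoRNA were lower in 36 of 36 (48.0% of all measured genes), with a median of −0.31. Again none was at least 2-fold lower, near the 1.16% of all measured genes. RPS14 was at −0.98, RPL6 at −0.61, RPL28 at −0.58 and RPS15A at −0.07. The differences of SNHG8 and SNHG15, by which they were chosen, lay below every measured member of these coding host and ribosomal protein lists. Of the other measured non-coding hosts, GAS5 alone lay below RPS14 and RPL32.

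H/ACA particles, the kind that SNORA24 and SNORA9 form, are built from dyskerin, NHP2, NOP10 and GAR1 with the help of assembly factors. Of 8 listed genes 7 were measured, and dyskerin was not among them. All 7 measured genes of this list were lower, with a median of −0.49, and 1 was at least 2-fold lower. Over all measured genes 48.0% were lower and 1.16% at least 2-fold lower. That gene was NOLC1, a nucleolar chaperone of snoRNA particles, which went from 10.8 with control to 9.22 with MYCN siRNA (2.92-fold lower). NHP2, a core protein, was 1.82-fold lower and NAF1, an assembly factor, 1.58-fold lower. The other core proteins measured, GAR1 at −0.21 and NOP10 at −0.13, differed by less than the probe set SD of 0.31. SHQ1, a chaperone of dyskerin, was at −0.10.

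Of 9 measured C/D particle genes, which serve the methylation guides found in GAS5, 7 were lower (48.0% of all measured genes). The median was −0.45, and none was at least 2-fold lower, near the 1.16% of all measured genes. NUFIP1, an assembly factor, was at −0.68, RUVBL1, an ATPase of the assembly machinery, at −0.58 and SNU13, a core protein, at −0.53. RPAP3, a partner of the same machinery, was at 0.06. FBL, the methyltransferase fibrillarin, was 1.41-fold lower.

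Genes that process or degrade the host transcripts showed smaller medians. Among 7 genes of intron debranching and snoRNA end trimming, 5 were lower and the median was −0.15, while 48.0% of all measured genes were lower and their median was 0.01. A count of 5 in 7 is not far from that share. TENT4B, a poly(A) polymerase that tags RNA for trimming, was at −0.69, the exonuclease XRN2 at −0.28, the helicase MTREX at −0.21 and PARN, a deadenylase, at 0.21. DBR1, the enzyme that opens intron lariats, was at −0.15.

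Of 15 listed factors of nonsense-mediated decay and its exon junction partners, 6 were measured, 4 of them lower, near the 48.0% of all measured genes, with a median of −0.08. CASC3 was at −0.42, EIF4A3 at −0.17, UPF2 at −0.13 and UPF1, the central helicase, at −0.03. XRN1, the exonuclease that degrades cytoplasmic RNA, went from 7.97 to 8.67 (1.63-fold higher). Its part in the values of SNHG8 and SNHG15 was not tested.

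Long non-coding RNAs that are not snoRNA hosts went both ways. Of 8 measured, 4 were lower and 4 higher, near the 48.0% lower of all measured genes, with a median of 0.09. MEG3, an imprinted transcript, was at 0.96, NORAD, a cytoplasmic RNA that binds Pumilio proteins, at 0.59, HOTAIR at 0.42 and CRNDE at −0.31. MALAT1, a nuclear speckle RNA, gave between 0.29 and 0.41 in its 3 probe sets. With a filter at the 70th percentile of rows the median of this list was 0.47.

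**Figure D3:**
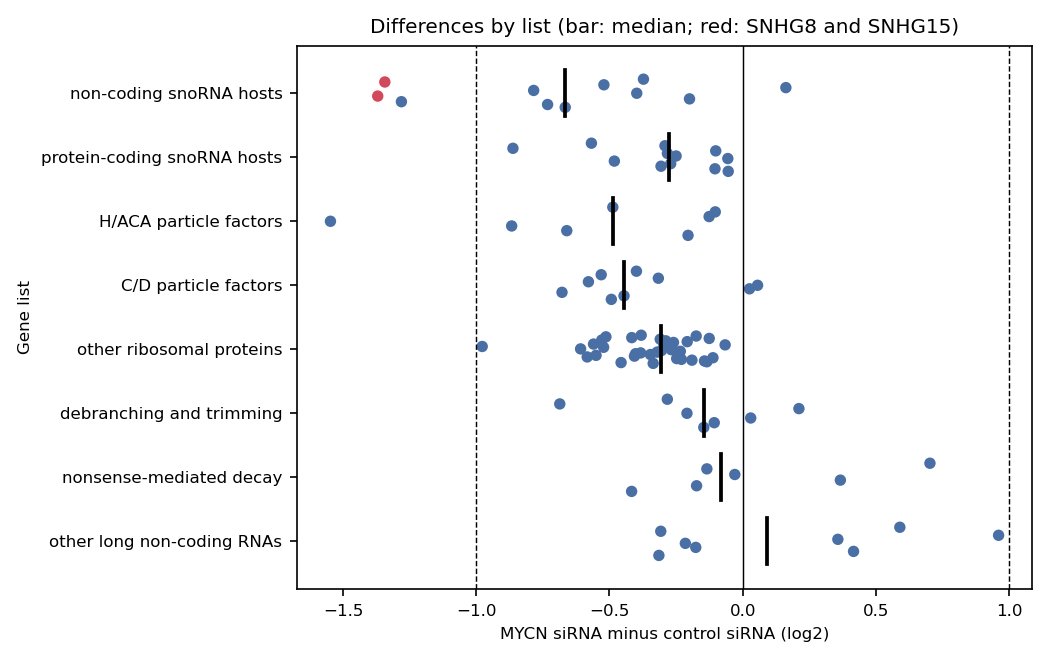
Log2 difference, MYCN siRNA minus control siRNA, of each measured gene in 8 lists (points) with the list median (bar), dashed lines at 2-fold and SNHG8 and SNHG15 in red. The bars run from −0.67 in the non-coding snoRNA hosts, with SNHG8 and SNHG15 counted in, to 0.09 in the other long non-coding RNAs.

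Named genes near the pair went both ways. SNHG15 has MYO1G, a myosin, next to it on chromosome 7 in the RefSeq gene order, and MYO1G went from 4.17 to 4.66. CCM2, a scaffold protein and the nearest named gene on the other side with 2 genes between, went from 4.84 to 5.44. Both lie close to the array medians of 4.60 and 4.55. NACAD, which follows CCM2 among the named genes, was at 0.58. For SNHG8, on chromosome 4, no adjacent gene has a named row. The nearest named genes were NDST3, a heparan sulfate enzyme with 4 genes between, which was not measured (3.05 and 2.91), and CEP170P1, with 6 genes between, at 0.44. CEP170P1 is a pseudogene whose signal may include that of CEP170. METTL14, a subunit of the RNA adenosine methyltransferase with 13 genes between, shared the direction of SNHG8 and went from 8.57 to 7.59 (1.98-fold lower). NACAD and METTL14 were picked once values were known.

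The genes whose pair of values lay nearest to that of each host gene were found by Euclidean distance over the 2 arrays. For SNHG8 they were PODXL2 (distance 0.05, difference −1.27), GAS5 (distance 0.08) and MAP7D3 (distance 0.09, difference −1.37). For SNHG15 they were LPAR3, a lysophosphatidic acid receptor (distance 0.07, difference −1.31), SFXN2, a mitochondrial sideroflexin (distance 0.14, difference −1.57), and GPATCH4 (distance 0.15, difference −1.16). With 2 arrays such likeness describes brightness and difference, and equal brightness of different probe sets does not mean equal amounts of RNA.

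All 10 adrenergic neuroblastoma markers on the array lay above the median row in both arrays. Over the list the control values ran from 6.47 to 10.7 and the MYCN siRNA values from 6.53 to 11.0. Of the 10, 8 were higher and 2 lower with MYCN siRNA, while 48.0% of all measured genes were lower. The median difference was 0.16, smaller than the probe set SD of 0.31. DBH, which converts dopamine to noradrenaline, was at 9.32 with control and 10.8 with MYCN siRNA (2.73-fold higher), DDC, an enzyme of the same pathway, was at 0.38, the granule protein CHGB at 0.30 and the transcription factor ISL1 at −0.43. Of the other cell types, 3 fibroblast markers ran from 3.12 to 7.19 in the control array and from 3.86 to 7.29 in the MYCN siRNA array. LUM, which encodes lumican, went from 6.54 to 5.37 (2.24-fold lower), and THY1 was at 0.10. DCN, dim in both arrays and not measured, went the other way, from 3.12 to 3.86. The 4 leukocyte markers ran from 2.86 to 7.27 and from 2.93 to 9.0. The top value in both was CD68, a lysosomal protein, which was 3.33-fold higher. CSF1R, a receptor of macrophages, went from 4.64 to 4.26 (−0.38), below the median row of the MYCN siRNA array, 4.55. CD14 and LYZ were not measured. The 5 endothelial and epithelial markers ran from 3.96 to 6.04 and from 3.83 to 5.66, with KDR at −0.65, the keratin KRT18 at −0.38, KRT8 at −0.06 and VWF at 0.02. The part of these shifts in the values of SNHG8 and SNHG15 was not tested. In bulk RNA, fewer cells with a transcript and less of it per cell cannot be told apart, and the 2 arrays have near equal value distributions, so a change in total RNA per cell would not show.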

How the data were processed

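BE(2)C samples, 1 given control siRNA and 1 given MYCN siRNA, were read on 1-colour arrays from 100 ng of RNA, per the labels' protocols. The deposited table gives log2 values, 1 for each probe set on each array; the submitters' processing notes name RMA, which usually equalises the arrays' distributions. The sources used here state neither its settings nor other arrays in the run. The control sample is titled as a reanalysis, unexplained.

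Of 46255 rows, 15835 had 1 gene symbol in the platform annotation, updated by gene ID through RefSeq (GRCh38.p14). Where a gene had several probe sets, the mean log2 value was taken. Differences were counted past 2-fold, with a filter at the 50th percentile of rows in at least 1 array. The number of arrays limits the precision. Named genes were both hosts, the highest and lowest of each list with up to 2 more in the direction of its median, the 3 nearest by value, and the nearest named neighbours. Other genes were named after their values were seen. Members and lists were chosen with earlier results of these data known.

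Python 3.11.15, pandas, NumPy and statsmodels 0.14.6 were used, and scripts were tested on simulated data.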

Additional observations from a re-analysis of the deposited data

How the results depend on the processing

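No paired analysis was possible because each condition has 1 array. Under 5 alternatives (median centring, quantile normalization, the brightest probe set, loess with span 0.3, an offset of 16 on linear values) SNHG8 ranged from −1.36 to −1.28 and SNHG15 from −1.41 to −1.25, so both kept their direction and stayed past 2-fold. The brightest probe set equals the mean for these genes, which have 1 each. Over 7 alternatives, filters included, the median of the non-coding host genes ranged from −0.71 to −0.54 and the median of all measured genes from 0.00 to 0.06. The host median includes SNHG8 and SNHG15, which were chosen by their difference. Without them it was −0.52 as deposited, and it was not computed under the alternatives.

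The count of genes at least 2-fold higher was 124 with the offset, against 234. At 1.5-fold, 613 genes were lower and 933 higher, against 123 and 234 at 2-fold, by construction of the lower threshold. Culture spread was not measured, so a difference of any size here could not be set against it.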
